A study of Rattus norvegicus with 18 samples.

Results

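The genes described here are 9 members of the transforming growth factor beta (TGF-beta) pathway in rat liver: the brake Ldlrad4, the ligands Tgfb1, Tgfb2 and Tgfb3, the receptors Tgfbr1 and Tgfbr2, the signal transducer Smad3, the inhibitory Smad7 and the repressor Skil. They were chosen by name, and each was read from the probes whose RefSeq accession belongs to it, taking the probe with the highest mean over the 18 arrays. Of the 15642 genes with a matched probe, 8 of the 9 members had one, and 7 passed the filter on dim probes, beside 10914 genes in all. Skil had no matched probe and is named only.

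Liver RNA of male F344/NSlc rats, bought at 5 weeks of age and acclimatized for 1 week on a basal diet, was hybridised to Agilent one-colour arrays, with 1 rat per array and 3 rats in each of 6 groups. The groups were rats given carbon tetrachloride (CCl4), a hepatotoxic carcinogen that is not genotoxic, at 100 mg/kg in corn oil, rats given N-nitrosodiethylamine (DEN), a genotoxic carcinogen, at 4 mg/kg in saline, and controls, each at day 28 and at day 84. Each rat dosed received its compound by daily gavage, in 5 mL/kg. The sample titles call the controls vehicle and the treatment protocol describes them as untreated on the basal diet, so whether gavage and vehicle were matched is not settled. The series asks which liver genes carcinogens without genotoxicity lower.

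TGF-beta is secreted in a latent form, held by binding proteins in the matrix, and released by integrins and proteases. Active ligand brings the type II receptor Tgfbr2 together with the type I receptor Tgfbr1, which phosphorylates Smad2 and Smad3, and these enter the nucleus with Smad4. In liver the pathway is known for driving stellate cells to make collagen and for restraining hepatocyte growth. Smad7 blocks the receptor, and the membrane protein LDLRAD4 is known from human cells to hold Smad2 and Smad3 away from it.

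The 300-base windows around the RefSeq start of Ldlrad4 and of both ligands that rose (250 bases before to 50 after, build GRCr8, 5′ to 3′ on the gene's strand) are printed as those of the brake and of the ligands with called rises. Capitals mark CAGAC, the short Smad-binding box, on either strand. The Ldlrad4 window is chr18:63916302-63916601 on the plus strand, at 1 RefSeq start inside the gene (chr18:63789089-64118166). The Tgfb1 window is chr1:90324062-90324361 on the plus strand. The Tgfb3 window is chr6:111456897-111457196 on the minus strand, also at a RefSeq start inside the gene (chr6:111435170-111457646).
Ldlrad4: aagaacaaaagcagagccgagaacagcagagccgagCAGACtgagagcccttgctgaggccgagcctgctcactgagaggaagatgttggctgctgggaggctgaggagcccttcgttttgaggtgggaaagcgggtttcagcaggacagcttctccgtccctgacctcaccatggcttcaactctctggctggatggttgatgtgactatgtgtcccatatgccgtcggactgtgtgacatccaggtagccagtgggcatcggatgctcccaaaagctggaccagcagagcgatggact
Tgfb1: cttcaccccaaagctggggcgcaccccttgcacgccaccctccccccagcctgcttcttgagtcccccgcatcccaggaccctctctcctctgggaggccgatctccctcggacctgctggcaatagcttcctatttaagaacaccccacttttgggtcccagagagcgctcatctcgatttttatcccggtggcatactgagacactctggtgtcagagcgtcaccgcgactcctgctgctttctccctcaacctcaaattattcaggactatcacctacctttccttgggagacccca
Tgfb3: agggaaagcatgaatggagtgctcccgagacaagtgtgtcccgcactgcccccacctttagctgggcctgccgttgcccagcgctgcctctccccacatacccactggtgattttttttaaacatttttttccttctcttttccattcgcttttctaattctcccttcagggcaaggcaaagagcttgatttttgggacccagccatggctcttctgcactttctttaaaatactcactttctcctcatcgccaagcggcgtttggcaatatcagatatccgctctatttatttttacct
The Ldlrad4 window held CAGAC 1 time, starting at base 37 of the window, and the Skil window held it 2 times, whereas the letters were not in the other 7 windows. CAGAC was present in 50.1% of the 33469 windows of the same length in that table. The longer palindrome GTCTAGAC, which holds no CAGAC, was in 0 of the 9 members' windows and in 0.197% of all windows. CpG dinucleotides numbered 10 in the Ldlrad4 window, 11 in that of Tgfb1, 9 in that of Tgfb3, 15 in that of Tgfbr2, 19 in that of Tgfb2, 30 in that of Tgfbr1, 34 in that of Smad3, 40 in that of Smad7 and 51 in that of Skil. Over all windows the quartiles were 3, 7 and 19 CpGs. These matches describe letters in a window and are no evidence of binding.

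Signals well above background made up 47.2% to 57.0% of each array's probes, and the 75th percentile of its processed signal lay between 170 and 325. Levels are given as log2 processed signal minus the array's 75th percentile, so that 0 is that percentile, and a level of 1 probe is not set against that of another. The first principal component of the 18 arrays held 58.9% of the variance. CCl4 replicate 2 at day 28 stood apart on it, at 75.7 against 38.1 and 25.4 for the other CCl4 arrays of that day, and its effect is given beside the results of day 28. By slide barcode, the day 28 arrays lay on slide 1 except CCl4 replicate 3, which lay on slide 2. The day 84 arrays lay on slide 2 except CCl4 replicates 2 and 3, which lay on slide 3. Differences between CCl4 and the other groups are thus partly mixed with the slide, and slide 2 alone holds only replicate 1 of the CCl4 group of day 84. All 6 hepatocyte markers were well above background on all arrays. Relative to the 8 spike-in probes, the 75th percentile itself was higher than in controls by 0.40 (DEN) and 0.79 (CCl4) on the log2 scale at day 28, and by 0.72 (DEN) and 0.56 (CCl4) at day 84, so a fall smaller than that size changes its sign under spike-in scaling.

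Across all genes, 15.0% of the 10914 tested were called for DEN at day 28 (7.82% higher and 7.19% lower), with a limma adjusted p below 0.05, and 59.7% for CCl4 (26.1% higher and 33.6% lower). At day 84, 52.7% were called for DEN (21.6% higher and 31.1% lower) and 64.3% for CCl4 (28.0% higher and 36.3% lower). The higher share of the calls was 52.1%, 43.7%, 40.9% and 43.5% in these 4 comparisons, and 98.0%, 94.0%, 96.5% and 89.1% with spike-in scaling. With quantile normalization it was 65.0%, 52.7%, 49.0% and 51.0%, and with median scaling 42.3%, 37.4%, 33.6% and 34.9%.

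Of the 7 members tested, Tgfb1 rose and Ldlrad4 fell with DEN at day 28. With CCl4 at day 28, Tgfb1, Tgfb3 and Tgfbr1 rose while Ldlrad4 and Tgfbr2 fell. At day 84, DEN raised Tgfb1 and lowered Ldlrad4, Tgfbr2 and Smad7, and CCl4 raised Tgfb1 and Tgfb3 and lowered the same 3 genes as DEN. All of these falls are relative to the 75th percentile, and none was called lower under spike-in scaling, where those of Smad7 at day 84, of Ldlrad4 with DEN and of Tgfbr2 with CCl4 at day 28 had the opposite sign. With more than 50% of all genes called in 3 of the 4 comparisons, the number of members called is no result about the members, and the sizes and directions of single genes are given instead. The median difference over the 7 members was 0.08 (DEN) and 0.35 (CCl4) at day 28 and −0.24 (DEN) and 0.02 (CCl4) at day 84, beside medians over all genes of −0.04, −0.06, −0.08 and −0.10.

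**Figure D1:**
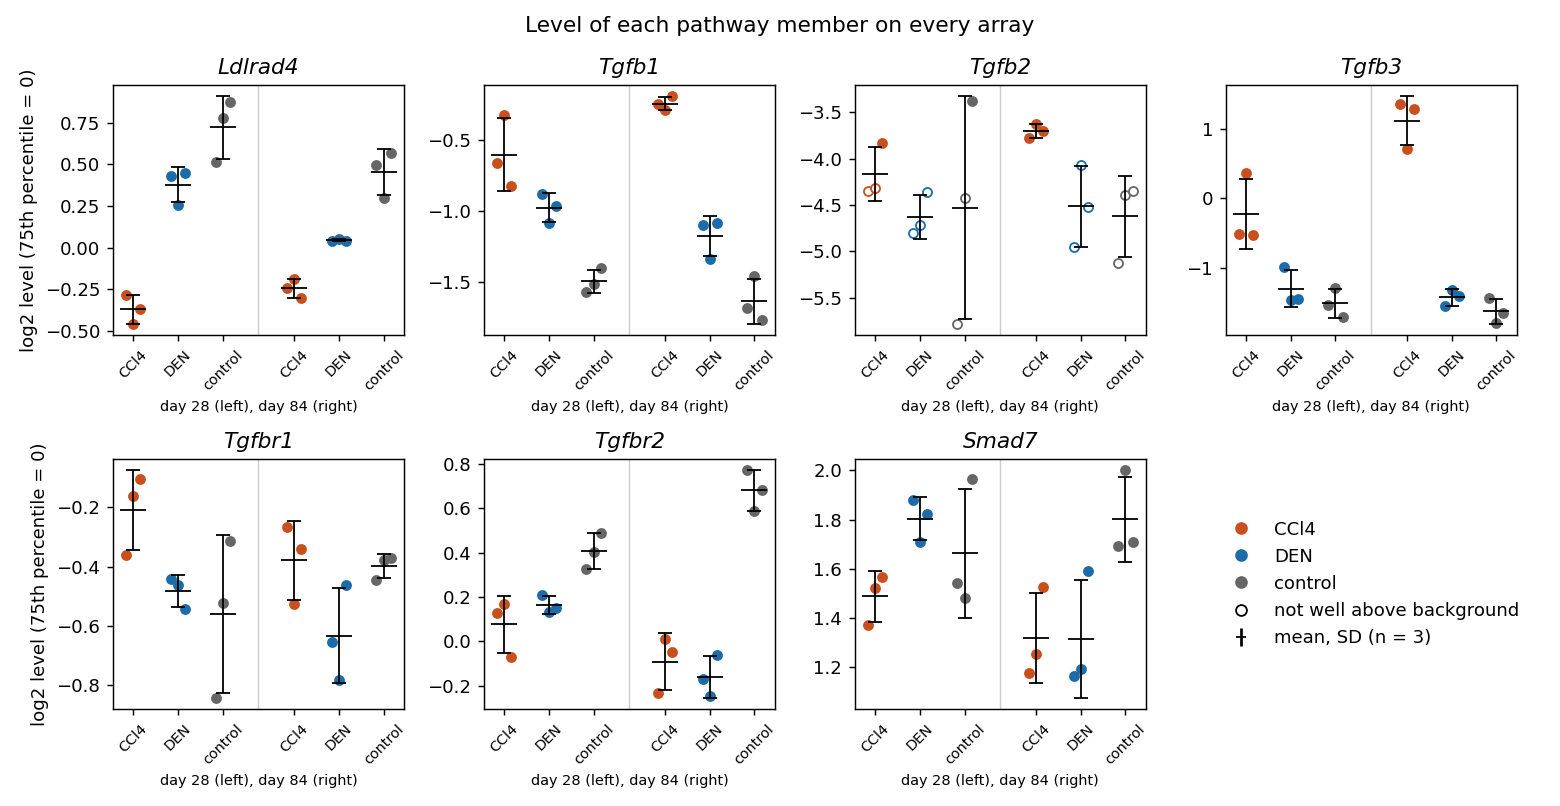
Level of each tested member on every array, as log2 processed signal minus the array's 75th percentile, by group (CCl4, DEN, control) and day; points are rats, bars the mean and SD (n = 3), and open points are not well above background. The CCl4 arrays of Ldlrad4 lie below all other groups, and those of Tgfb1 and Tgfb3 lie above all others, at both days; with spike-in scaling Ldlrad4 with CCl4 differed from controls by −0.30 and −0.14, and neither was called.

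Ldlrad4, the brake, had its lowest levels in rats given CCl4. At day 28 it read −0.28, −0.46 and −0.37 in CCl4 livers, 0.43, 0.25 and 0.45 in DEN livers, and 0.51, 0.78 and 0.87 in control livers. The day 84 readings were −0.24, −0.19 and −0.30 in CCl4 livers, 0.04, 0.05 and 0.04 in DEN livers, and 0.49, 0.30 and 0.57 in control livers. At both days the 3 groups lay in the same order, CCl4 lowest and control highest, and no array of one group overlapped another group of that day. The difference from controls with CCl4 was −1.09 ± 0.10 (SE, limma adjusted p = 8.82e-07, 2.13-fold lower) at day 28 and −0.70 ± 0.10 (adjusted p = 2.73e-05, 1.62-fold lower) at day 84. With DEN it was −0.34 (adjusted p = 0.0283, 1.27-fold lower) and −0.41 (adjusted p = 0.00275, 1.33-fold lower) by the same test.

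Ldlrad4 is, from knowledge of the study, among the genes its authors followed up as lowered by CCl4 in these samples, so the fall is not independent evidence. A second Ldlrad4 probe gave −0.44, −1.34, −0.50 and −0.87 for DEN and CCl4 at day 28 and for DEN and CCl4 at day 84, each called. With spike-in scaling the DEN differences turned to 0.05 and 0.31 and those with CCl4 were −0.30 (adjusted p = 0.120) and −0.14 (adjusted p = 0.494). Within slide 1 alone the DEN difference at day 28 was as large, at −0.34, but was not called (adjusted p = 0.120), and the call was also lost with no filter (adjusted p = 0.0531), without control replicate 2 (−0.31) or 3 (−0.27), without DEN replicate 1 (−0.37) or 2 (−0.28), and when only both groups were fitted (adjusted p = 0.0980). Without CCl4 replicate 2, the CCl4 difference at day 28 was −1.05.

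Summed over 6 hepatocyte markers, the scaled signal ranged over 1777–2340 in CCl4 livers, 3216–3250 in DEN livers and 3656–3829 in control livers at day 28. The day 84 sums ranged over 2014–2677 in CCl4 livers, 1903–2284 in DEN livers and 3208–3357 in control livers. The hepatocyte sum was thus lowest in the CCl4 group at day 28 and overlapped between CCl4 and DEN at day 84, when Ldlrad4 did not overlap. Fewer cells of a type and less RNA per cell cannot be told apart in whole liver, and the part of the cell makeup in the fall of Ldlrad4 was not tested.

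Between both compounds, Ldlrad4 was lower with CCl4 than with DEN by 0.75 ± 0.10 log2 at day 28 (limma adjusted p = 4.76e-05), where 45.1% of all genes were called (20.4% higher and 24.7% lower with CCl4). At day 84 the difference was −0.29 ± 0.10 (adjusted p = 0.0317), where 34.3% were called (18.5% higher and 15.8% lower). The higher share of these calls was 45.2% and 54.0% at the 2 days, and 87.1% and 34.3% with spike-in scaling. The day 84 difference was the same size with the slide as a block but was not called (adjusted p = 0.184). It was also not called with no filter (adjusted p = 0.0545), without DEN replicate 1 (−0.29), 2 (−0.28) or 3 (−0.29), or without CCl4 replicate 1 (−0.29) or 3 (−0.26). Within slide 2 alone, which holds only CCl4 replicate 1 of that day, it was −0.29. With spike-in scaling Ldlrad4 differed between CCl4 and DEN by −0.36 at day 28 (adjusted p = 0.101) and by −0.45 at day 84 (adjusted p = 0.0707).

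The CCl4 effect on Ldlrad4 was smaller in size at day 84 than at day 28 by 0.39 ± 0.13 log2, which did not pass the test (adjusted p = 0.101), and passed it without control replicate 1 of day 28 (0.50, adjusted p = 0.0345). Spike-in scaling moves this change toward 0 by 0.23, as it shifts every gene. For the DEN effect the change between days was −0.07 ± 0.13 (95% interval −0.36 to 0.22), and 0.26 with spike-in scaling. In descending order, the group means of Ldlrad4 were control at day 28, control at day 84, DEN at day 28, DEN at day 84, CCl4 at day 84 and CCl4 at day 28. The arrays of neighbours overlapped among the first 3 of these and between both CCl4 groups.

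The 5 tested genes whose 6 group means ran closest to those of Ldlrad4 were Aldh7a1, Ces1e, Aldh9a1, Plbd2 and Acsm1. The root mean square distance between centred means was 0.04 log2 for Aldh7a1 and Ces1e, 0.05 for Aldh9a1 and Plbd2, and 0.06 for Acsm1, against 0.39 for the spread of Ldlrad4 itself over the 6 groups. Aldh7a1, an aldehyde dehydrogenase of lysine breakdown, averaged 7.24 in CCl4, 8.08 in DEN and 8.37 in control livers at day 28, and 7.36, 7.63 and 8.12 in the same groups at day 84. Aldh9a1 is another aldehyde dehydrogenase, Ces1e a carboxylesterase and Acsm1 a mitochondrial acyl-CoA synthetase.

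Tgfb1, the ligand most studied in liver fibrosis, was higher with both compounds at both days. At day 28 it read −0.66, −0.32 and −0.82 in CCl4 livers, −0.88, −1.08 and −0.97 in DEN livers, and −1.57, −1.52 and −1.41 in control livers. The day 84 readings were −0.25, −0.29 and −0.19 in CCl4 livers, −1.10, −1.34 and −1.09 in DEN livers, and −1.68, −1.46 and −1.77 in control livers. The groups of a day did not overlap, with CCl4 highest and control lowest.

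The DEN difference of Tgfb1 was 0.52 ± 0.12 at day 28 (limma adjusted p = 0.0116, 1.44-fold) and 0.46 ± 0.12 at day 84 (adjusted p = 0.00554, 1.38-fold). With CCl4 it was 0.90 ± 0.12 (adjusted p = 2.84e-05, 1.86-fold) and 1.40 ± 0.12 (adjusted p = 5.74e-07, 2.63-fold). Spike-in scaling, which adds a positive shift to every gene here, gave 0.92, 1.18, 1.68 and 1.95 in that order, so it is no check on a rise. With normexp background correction the DEN differences were 0.26 (adjusted p = 0.0528) and 0.17 (adjusted p = 0.0935), and without DEN replicate 1 that of day 28 was 0.47 (adjusted p = 0.0569), so neither survived every setting. Without CCl4 replicate 2, the CCl4 difference at day 28 was 0.76.

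CCl4 livers had more Tgfb1 than DEN livers by 0.37 ± 0.12 log2 at day 28 (limma adjusted p = 0.0209) and 0.93 ± 0.12 at day 84 (adjusted p = 7.24e-05). The day 28 difference was 0.23 (adjusted p = 0.109) without CCl4 replicate 2 and 0.32 (adjusted p = 0.0804) without DEN replicate 2, and it was not called when only both groups were fitted (adjusted p = 0.103). The CCl4 effect was larger at day 84 by 0.50 ± 0.17, short of the threshold (adjusted p = 0.0965), and passed it without CCl4 replicate 2 of day 28 (0.64, adjusted p = 0.0123) and with normexp (0.41, adjusted p = 0.0365). Under spike-in scaling this change moves toward 0 by 0.23. The genes with the nearest group means to Tgfb1 were Ap1s2 (distance 0.04 log2), Plcd1 (0.05), Cybb (0.06), Ppt1 (0.06) and Pik3cd (0.07), against a spread of 0.49 for Tgfb1 itself. Of these, Cybb is the phagocyte NADPH oxidase subunit and Pik3cd, dim here with group means of −4.44 to −3.06, a leukocyte phosphoinositide kinase. Which cells made Tgfb1 was not tested.

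Tgfb3, which signals through the same receptors as Tgfb1, changed with CCl4 and had the largest differences among the 7 members tested. At day 28 it read −0.50, 0.36 and −0.53 in CCl4 livers, −0.99, −1.45 and −1.44 in DEN livers, and −1.53, −1.29 and −1.69 in control livers. The day 84 readings were 1.35, 0.71 and 1.28 in CCl4 livers, −1.54, −1.32 and −1.39 in DEN livers, and −1.43, −1.78 and −1.64 in control livers. Every CCl4 array lay above every array of the other groups, and those of day 84 lay above those of day 28, while DEN and control arrays overlapped.

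The CCl4 difference of Tgfb3 was 1.28 ± 0.23 at day 28 (limma adjusted p = 0.000294, 2.43-fold) and 2.73 ± 0.23 at day 84 (adjusted p = 4.87e-07, 6.64-fold). Without CCl4 replicate 2 the day 28 value was 0.99. With DEN the differences were 0.21 (95% interval −0.28 to 0.70, adjusted p = 0.554) and 0.20 (−0.29 to 0.69, adjusted p = 0.484). CCl4 exceeded DEN by 1.07 ± 0.23 at day 28 (adjusted p = 0.00197) and by 2.53 ± 0.23 at day 84 (adjusted p = 4.38e-06, 5.78-fold), a rise that 89 of the 10914 genes surpassed. Spike-in scaling gave 2.06 and 3.29 for CCl4 against controls, and made the DEN difference of day 84 pass, at 0.92 (adjusted p = 0.0131).

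The CCl4 effect on Tgfb3 was larger at day 84 than at day 28 by 1.45 ± 0.32 log2 (limma adjusted p = 0.0187), where 6.03% of all genes were called (3.51% higher and 2.52% lower). The higher share of those calls was 58.2%, and 34.3% with spike-in scaling and 46.9% with median scaling. This call did not hold with spike-in scaling (1.22, adjusted p = 0.139), with the slide as a block (1.53, adjusted p = 0.0572), when only the groups compared were fitted (adjusted p = 0.0557), without control replicate 2 of day 84 (1.37, adjusted p = 0.0506) and without CCl4 replicate 1 of day 84 (1.34, adjusted p = 0.0511).

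The summed scaled signal of 9 stellate cell and myofibroblast markers was higher with CCl4 at both days, as Tgfb1 and Tgfb3 were. It ranged over 69.5–166 in CCl4 livers, 29.8–36.5 in DEN livers and 19.2–33.6 in control livers at day 28. At day 84 the ranges were 81.6–116 in CCl4, 26.7–31.0 in DEN and 19.0–21.2 in control livers. With CCl4, 7 of the 9 markers rose at each day and 0 fell (77.8% higher, beside 26.1% and 28.0% of all genes), and 8 of the 9 were above background on all arrays. Acta2, Tagln, Col1a1 and Col1a2 are also on the list of targets below. The CCl4 sums overlapped between days, while the CCl4 arrays of Tgfb3 did not. Cholangiocyte and lymphocyte sums, given under other observations, also lay above controls with CCl4 at both days. The platelet sum did so at day 84, and macrophage and endothelium sums lay below. The part of any of these cells in the ligand rises was not tested.

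Tgfb2, the remaining ligand, was well above background on 5 of 18 arrays: all 3 CCl4 arrays of day 84, 1 of 3 CCl4 arrays and 1 of 3 control arrays of day 28. Of its 3 matched probes, 1 passed the filter. The others were well above background on no array, with day 84 means of −5.84 and −6.22 in CCl4 livers and −5.75 and −5.71 in control livers. The passing probe did so only through the CCl4 group of day 84. There it read −3.78, −3.62 and −3.70, against −5.12, −4.39 and −4.35 in control livers, where it was above background on none. The CCl4 level at day 84 was thus at least 1.04-fold that of controls and at least 1.35-fold that of DEN livers, where no array was above background either. Neither comparison was called (limma adjusted p = 0.0786 and 0.167, from the signals as read and not from these bounds). The first comparison was called with spike-in scaling and when only both groups were fitted, and its sign turned with normexp. The second was called with normexp and when only both groups were fitted. As the probe entered the test through the CCl4 group of day 84 alone, none of these calls is support for a rise.

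**Figure D2:**
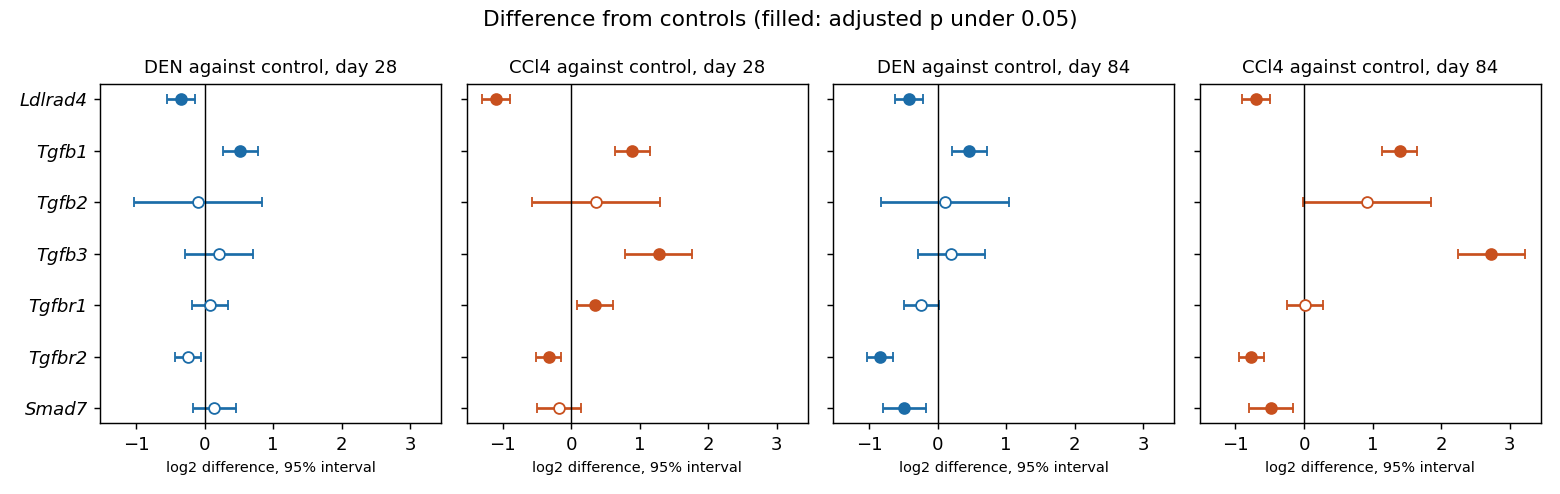
Difference of each tested member from the controls of its day (log2, 95% interval, limma over 18 arrays) for DEN and CCl4 at days 28 and 84; filled points have an adjusted p below 0.05. Tgfb3 with CCl4 at day 84 lies farthest from 0, at 2.73, and Ldlrad4 lies left of 0 in all 4 panels; with spike-in scaling Ldlrad4 lay right of 0 with DEN, at 0.05 and 0.31.

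Tgfbr2, the type II receptor that binds the ligand first, was lower with both compounds at day 84. At day 84 it read −0.23, 0.01 and −0.05 in CCl4 livers, −0.17, −0.25 and −0.06 in DEN livers, and 0.77, 0.59 and 0.68 in control livers. The day 28 readings were 0.13, 0.17 and −0.07 in CCl4 livers, 0.21, 0.13 and 0.15 in DEN livers, and 0.33, 0.40 and 0.49 in control livers. Treated arrays lay below all controls of their day, DEN and CCl4 overlapped, and controls of day 84 lay above those of day 28.

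At day 84 the difference of Tgfbr2 from controls was −0.84 ± 0.09 with DEN (limma adjusted p = 5.77e-06, 1.79-fold lower) and −0.77 ± 0.09 with CCl4 (adjusted p = 4.91e-06, 1.71-fold lower). At day 28 it was −0.24 ± 0.09 with DEN (adjusted p = 0.0707, and called with median scaling and with the slide as a block) and −0.33 ± 0.09 with CCl4 (adjusted p = 0.00454, 1.26-fold lower). With spike-in scaling the values were 0.15 (DEN) and 0.46 (CCl4, adjusted p = 0.0114) at day 28 and −0.12 and −0.22 at day 84, so that the CCl4 call of day 28 turned to the opposite side and those of day 84 were lost. Both other Tgfbr2 probes ran the same way, with −0.37 and −0.31 for DEN at day 28, −0.53 and −0.35 for CCl4 at day 28, −0.86 and −0.76 for DEN at day 84, and −0.80 and −0.68 for CCl4 at day 84. Between CCl4 and DEN it differed by −0.09 (95% interval −0.27 to 0.10) at day 28 and by 0.07 (−0.12 to 0.25) at day 84.

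The DEN effect on Tgfbr2 was more negative at day 84 than at day 28 by 0.60 ± 0.12 log2 (limma adjusted p = 0.00640), where 16.1% of all genes were called (7.64% higher and 8.41% lower). The higher share of those calls was 47.6%, and 91.7% with spike-in scaling, where Tgfbr2 gave −0.27 (adjusted p = 0.414). Of the other probes, 1 gave −0.48 (adjusted p = 0.0784) and was not called, and 1 gave −0.45 (adjusted p = 0.0314). For CCl4 the change between days was −0.44 ± 0.12 (adjusted p = 0.0465). That call was lost under most settings: with spike-in scaling, no filter, only the groups compared, and without any 1 array of the 4 groups except control replicate 3 and CCl4 replicate 3 of day 28 and CCl4 replicate 2 of day 84. On those 9 omissions the value was −0.37 to −0.49. With the other probes the CCl4 change was −0.27 and −0.33, and neither was called.

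In controls, Tgfbr2 was higher at day 84 than at day 28 by 0.27 ± 0.09 log2 (limma adjusted p = 0.0584), and the arrays did not overlap. It was called there with normexp (adjusted p = 0.0481), with the stricter filter (adjusted p = 0.0498) and with median scaling (adjusted p = 0.0278). The other Tgfbr2 probes gave 0.15 (adjusted p = 0.478) and 0.09 (adjusted p = 0.571) between control days, and their control arrays overlapped. None of the 7 members was called between control days by limma, 2 of them (Ldlrad4 and Tgfbr2) had an unadjusted p below 0.05, and 9.77% of all genes were called (4.44% higher and 5.32% lower). The higher share of those calls was 45.5%, and 67.4% with spike-in scaling and 57.5% with median scaling. Control days lay on different slides, and with the slide as a block Tgfbr2 differed by 0.49 (adjusted p = 0.107). Only CCl4 replicate 3 of day 28 links these slides in that block, so the value cannot tell day from slide.

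Tgfbr1, the kinase receptor, was called only with CCl4 at day 28 among the 4 comparisons with controls. At day 28 it read −0.36, −0.16 and −0.11 in CCl4 livers, −0.44, −0.46 and −0.54 in DEN livers, and −0.84, −0.52 and −0.31 in control livers, with 1 control array inside the CCl4 range and the other 2 below it. The CCl4 difference there was 0.35 ± 0.12 (limma adjusted p = 0.0234), and it was not called with normexp (0.17), median scaling (0.28), the slide as a block or slide 1 alone (0.30 each), only both groups, without control replicate 1 (0.21), or without CCl4 replicate 2 (0.33) or 3 (0.30). The day 84 readings were −0.27, −0.53 and −0.34 in CCl4 livers, −0.66, −0.78 and −0.46 in DEN livers, and −0.45, −0.38 and −0.37 in control livers. The day 84 differences were −0.24 ± 0.12 for DEN (adjusted p = 0.119, and called with median scaling), and 0.02 for CCl4 (95% interval −0.24 to 0.28). With spike-in scaling they were 0.48 (adjusted p = 0.0373) and 0.58 (adjusted p = 0.0199).

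The probes of Tgfbr1 disagreed in size. For CCl4 at day 28, 2 other probes that passed the filter gave 0.81 and 0.49, both called. For DEN at day 84, 1 of them gave −0.42 and was called. For CCl4 against DEN at day 84 they gave 0.67 and 0.55, both called, whereas the brightest probe gave 0.26 (adjusted p = 0.121).

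Smad3, which carries the receptor's signal to the nucleus, had 2 matched probes, and neither was well above background on any of the 18 arrays. It has no level here and entered no test.

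Smad7, the inhibitory Smad that the pathway itself induces, was lower with both compounds at day 84. At day 84 it read 1.18, 1.25 and 1.52 in CCl4 livers, 1.16, 1.19 and 1.59 in DEN livers, and 1.69, 2.00 and 1.71 in control livers. The day 28 readings were 1.37, 1.52 and 1.57 in CCl4 livers, 1.88, 1.71 and 1.82 in DEN livers, and 1.54, 1.48 and 1.96 in control livers. Treated arrays lay below the controls at day 84, and the control arrays overlapped both treatments at day 28.

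The day 84 difference of Smad7 was −0.49 ± 0.15 with DEN (limma adjusted p = 0.0133, 1.40-fold lower) and −0.48 ± 0.15 with CCl4 (adjusted p = 0.0104, 1.40-fold lower), and with spike-in scaling these turned to 0.23 and 0.07. The DEN call was lost without control replicate 2 (−0.39) and without DEN replicate 1 (−0.41) or 2 (−0.42), and the CCl4 call without control replicate 2 (−0.38). Within slide 2 alone, which holds only CCl4 replicate 1 of that day, the CCl4 difference was −0.62. At day 28 the differences were 0.14 with DEN (95% interval −0.17 to 0.46) and −0.18 with CCl4 (−0.49 to 0.14), and with spike-in scaling 0.54 and 0.61, both called. The DEN effect was more negative at day 84 by 0.63 ± 0.21, short of the threshold (adjusted p = 0.0549), and passed it without control replicate 3 of day 28 (−0.78) or DEN replicate 3 of day 84 (−0.76), with normexp (−0.57, adjusted p = 0.0403), with the stricter filter (adjusted p = 0.0466) and with median scaling (−0.66, adjusted p = 0.0470). Spike-in scaling moves this change toward 0 by 0.32, the shift it adds for every gene.

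**Figure D3:**
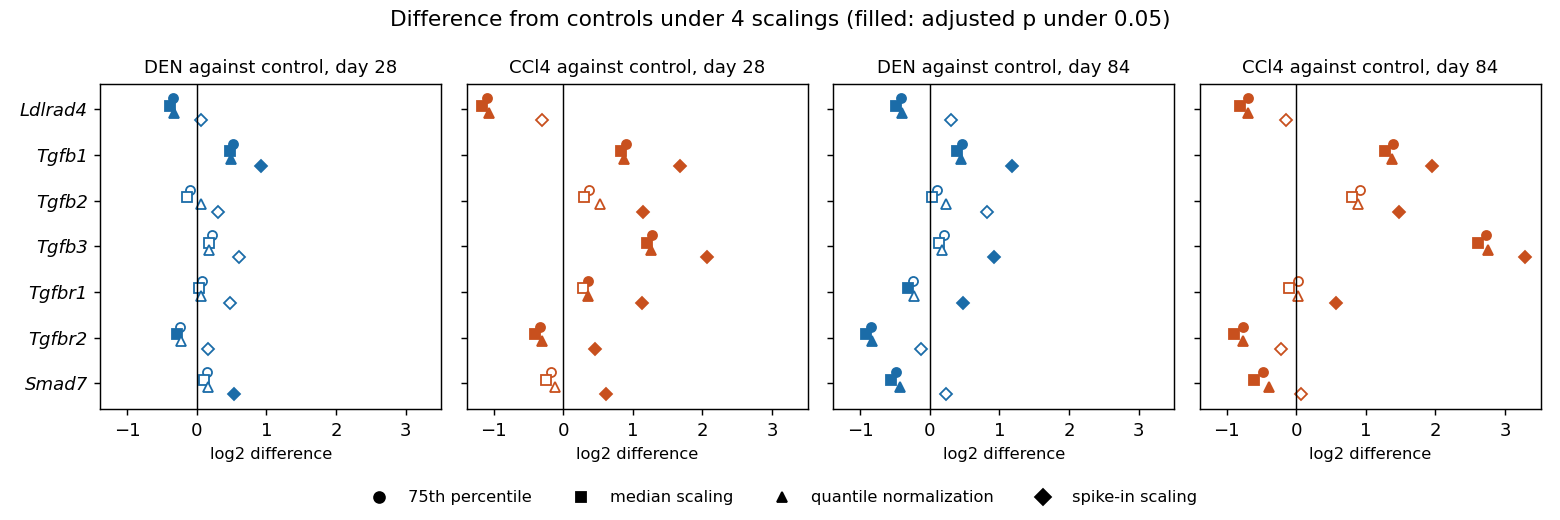
Difference of each tested member from controls (log2) under 4 scalings of the arrays: the 75th percentile, the median, quantile normalization and the spike-in probes; filled points have an adjusted p below 0.05. The first 3 scalings lie close together, and the spike-in values lie to the right of them, so that the DEN differences of Ldlrad4, −0.34 and −0.41 by the 75th percentile, are 0.05 and 0.31, while Tgfb1 and Tgfb3 with CCl4 stay right of 0 in all 4. As the spike-in shift is positive in each comparison, it cannot turn a rise.

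Beyond the members, 87 other genes of the pathway were listed by role, of which 80 had a probe and 73 were tested. With DEN, 8 rose and 2 fell at day 28 (11.0% and 2.74%, against 7.82% and 7.19% of all genes), and 24 rose and 23 fell at day 84 (32.9% and 31.5%, against 21.6% and 31.1%). With CCl4, 34 rose and 18 fell at day 28 (46.6% and 24.7%, against 26.1% and 33.6%), and 37 rose and 17 fell at day 84 (50.7% and 23.3%, against 28.0% and 36.3%). These shares, and those of the role lists, are descriptions, and the lists were not tested against other genes. The median differences were 0.22 (DEN) and 0.33 (CCl4) at day 28, and −0.04 (DEN) and 0.55 (CCl4) at day 84, beside medians over all genes between −0.04 and −0.10. Spike-in scaling adds 0.40, 0.79, 0.72 and 0.56 to every gene in these comparisons (DEN and CCl4 at day 28, then at day 84). A rise thus cannot turn its sign, and that every gene that rose was again called higher is no support. Among those that fell, 1 of the 2, 10 of the 18, 13 of the 23 and 2 of the 17 had a positive difference. Without DEN replicate 1, and within slide 1, 4 genes in place of 8 rose with DEN at day 28.

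Of 14 genes tested that store, tether or release the latent ligand, 9 rose and 2 fell with CCl4 at day 28. These were 64.3% and 14.3%, beside 26.1% and 33.6% of all genes. At day 84, 9 rose and 1 fell with CCl4 (64.3% and 7.14%, beside 28.0% and 36.3%). With DEN 2 rose and 1 fell at day 28 (14.3% and 7.14%, beside 7.82% and 7.19%), and 6 rose and 3 fell at day 84 (42.9% and 21.4%, beside 21.6% and 31.1%). Ltbp1, a latent TGF-beta binding protein of the matrix, lay between 1.33 and 2.36 in CCl4 livers, 0.69 and 0.90 in DEN livers, and 0.14 and 0.72 in control livers at day 28. At day 84 it lay between 2.71 and 3.21 in CCl4 livers, 0.78 and 1.13 in DEN livers, and −0.14 and −0.03 in control livers. Its CCl4 differences were 1.29 ± 0.23 (limma adjusted p = 0.000278) and 3.10 ± 0.23 (adjusted p = 1.87e-07), and its DEN difference at day 84 was 1.01 (adjusted p = 0.00235).

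Ltbp2, a related matrix protein, rose by 2.93 with CCl4 at day 28 and by 2.70 (DEN) and 3.70 (CCl4) at day 84, with only 1 of 3 controls of day 84 above background. Itgb1, the integrin beta 1 chain, rose by 0.81 (CCl4) at day 28 and by 0.65 (DEN) and 0.88 (CCl4) at day 84. Nrros, which tethers latent TGF-beta1 on myeloid cells in mice, rose by 0.47 (DEN) and 0.32 (CCl4) at day 28 and by 0.40 with CCl4 at day 84. The Nrros rise with CCl4 at day 28 was 0.24 (adjusted p = 0.0588) without control replicate 1.

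Furin, the protease that cuts the ligand precursors, was lower in all 4 comparisons, by −0.38 (DEN) and −0.67 (CCl4) at day 28 and −0.82 and −0.77 at day 84, against 0.01, 0.12, −0.10 and −0.21 with spike-in scaling. The DEN fall of day 28 was not called without control replicate 1 or DEN replicate 1 (−0.34 in each case). That call was also lost with normexp (−0.27), with quantile normalization (−0.29) and within slide 1 alone (−0.38). Mmp14, a membrane protease that can release latent ligand, was higher with DEN at day 28 (0.45) and lower at day 84 (−0.39, and 0.33 with spike-in scaling). The Mmp14 fall was not called with quantile normalization (−0.23).

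Among receptors of the related activin and BMP branches, both activin type II receptors were called lower in 3 comparisons, with smaller or opposite differences under spike-in scaling. Of 7 tested, 0 rose and 0 fell with DEN at day 28, beside 7.82% and 7.19% of all genes. With CCl4 at day 28, 1 rose and 3 fell (14.3% higher, beside 26.1%). At day 84, 0 rose and 3 fell with DEN, where 21.6% of all genes rose, and 2 rose and 3 fell with CCl4 (28.6% higher, beside 28.0%). The falls were 42.9% of the list in each of the last 3 comparisons, beside 33.6%, 31.1% and 36.3% of all genes. Acvr2a, an activin type II receptor, differed by −1.01 with CCl4 at day 28 and by −0.55 (DEN) and −0.63 (CCl4) at day 84, against −0.22, 0.17 and −0.08 with spike-in scaling. The DEN value was not called without DEN replicate 2 (−0.33, adjusted p = 0.0980). Acvr2b, the other activin type II receptor, differed by −0.50, −0.99 and −0.72 in those 3 comparisons, and by 0.29, −0.27 and −0.16 with spike-in scaling.

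Acvr1, a type I receptor of BMPs, differed by −1.41 (DEN) and −0.99 (CCl4) at day 84, and with spike-in scaling the DEN difference was still called. Bmpr2, the BMP type II receptor, differed by −0.55 with CCl4 at day 28, and by 0.23 with spike-in scaling. Acvrl1, a type I receptor of endothelium, rose by 0.76 ± 0.11 with CCl4 at day 84 (limma adjusted p = 5.09e-05).

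Among 6 Smads and adaptors, Dab2 rose and the Smads that were called fell relative to the 75th percentile, with opposite signs for Smad4 under spike-in scaling. With CCl4 1 rose and 1 fell at day 28 and 1 rose and 2 fell at day 84, with DEN 1 rose and 3 fell at day 84 (16.7% higher, beside 21.6% of all genes), and at day 28 none was called. Dab2, an endocytic adaptor linking receptors to Smads, rose by 0.80 with CCl4 at day 28 and by 0.67 (DEN) and 1.15 (CCl4) at day 84. Smad4, the shared partner of receptor Smads, differed by −0.32, −0.42 and −0.44 in those 3 comparisons, and by 0.46, 0.30 and 0.12 with spike-in scaling. The first Smad4 fall was not called without control replicate 2 (−0.30) or CCl4 replicate 3 (−0.23). Smad1, of the BMP branch, differed by −0.54 (DEN) and −0.65 (CCl4) at day 84, and by 0.18 and −0.09 with spike-in scaling.

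Among the inhibitors, decorin rose in all 4 comparisons with controls. Of 12 tested, 1 rose and 0 fell with DEN at day 28 (8.33% higher, beside 7.82% higher and 7.19% lower of all genes). With CCl4 at day 28, 5 rose and 3 fell (41.7% and 25.0%, beside 26.1% and 33.6%). At day 84, 5 rose and 4 fell with DEN (41.7% and 33.3%, beside 21.6% and 31.1%), and 7 rose and 3 fell with CCl4 (58.3% and 25.0%, beside 28.0% and 36.3%). Decorin (Dcn), a matrix proteoglycan that binds TGF-beta, lay between 3.69 and 4.22 in CCl4 livers, 2.23 and 2.51 in DEN livers and 0.55 and 1.07 in control livers at day 84. It rose by 1.21 (DEN) and 2.11 (CCl4) at day 28 and by 1.59 (DEN) and 3.21 (CCl4) at day 84, with a limma adjusted p of 2.22e-06 for the last. The DEN rise at day 28 was not called without control replicate 3 (0.87) or DEN replicate 1 (1.02).

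Fstl3, a secreted binder of activins, was not well above background in controls and was at least 2.26-fold (CCl4, day 28), 1.03-fold (DEN, day 84) and 2.32-fold (CCl4, day 84) their level. Its probe passed the filter through treated groups alone, so its calls, counted among the inhibitor rises above, are no support for a rise. With normexp the DEN difference of day 84 was 0.095 and was not called (limma adjusted p = 0.494). Ppm1a, a phosphatase known from human cells to act on receptor Smads, differed by −0.55 with CCl4 at day 28 and by −0.28 (DEN) and −0.74 (CCl4) at day 84, against 0.24, 0.44 and −0.18 with spike-in scaling. Usp15 and Usp11 are deubiquitinases that favour signalling in human cells. Usp15 differed by −0.72 with CCl4 at day 28 and by −0.62 (DEN) and −0.79 (CCl4) at day 84, against 0.07, 0.10 and −0.24 with spike-in scaling, while Usp11 rose by 0.94 and 0.93 with CCl4 at days 28 and 84. With normexp the Usp11 rise of day 28 was 0.27 and was not called (limma adjusted p = 0.0750). Of the 3 deubiquitinases tested, 1 rose and 1 fell with CCl4 at each day, 33.3% each way. Of all genes, 26.1% rose and 33.6% fell at day 28, and 28.0% and 36.3% at day 84. With DEN at day 84, 1 fell (33.3%, beside 31.1%), so these counts are no result about the list.

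Among 11 related ligands, the activin subunits fell with CCl4 at both days and with DEN at day 84, and the falls of Inhba, Inhbc and Inhbe were called under spike-in scaling as well. The list gave 1 rise and 0 falls with DEN at day 28 (9.09% higher, beside 7.82% higher and 7.19% lower of all genes). With CCl4 at day 28 it gave 5 rises and 4 falls (45.5% and 36.4%, beside 26.1% and 33.6%). At day 84 it gave 3 rises and 4 falls with DEN (27.3% and 36.4%, beside 21.6% and 31.1%). With CCl4 at day 84 it gave 4 rises and 4 falls (36.4% each way, beside 28.0% and 36.3%). Inhba, the activin beta A subunit, lay between 1.63 and 3.13 in CCl4 livers, 3.65 and 4.10 in DEN livers and 4.17 and 4.30 in control livers at day 28. At day 84 it lay between 1.03 and 1.66 in CCl4 livers, 0.70 and 1.89 in DEN livers and 3.77 and 4.67 in control livers. Its differences were −1.78 ± 0.36 with CCl4 at day 28, and −3.02 ± 0.36 (DEN, limma adjusted p = 1.92e-05) and −2.86 ± 0.36 (CCl4, adjusted p = 1.38e-05) at day 84.

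Inhbc, the activin beta C subunit of hepatocytes, differed by −2.03 with CCl4 at day 28 and by −1.89 (DEN) and −2.10 (CCl4) at day 84. Gdf15, a stress-induced member of the family, rose by 1.72 (DEN) and 1.49 (CCl4) at day 28 and by 2.33 with DEN at day 84. Its DEN rise of day 28 was not called without control replicate 2 (1.24) or DEN replicate 1 (1.53). Bmp7 rose by 1.68 with CCl4 at day 28 and by 0.38 (DEN) and 1.79 (CCl4) at day 84, and the DEN rise was not called without any 1 of control replicates 1 (0.34) and 2 (0.31) or DEN replicates 1 (0.36), 2 (0.42) and 3 (0.38). Nor was that DEN rise called with normexp (0.23) or median scaling (0.31).

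Known transcriptional targets of TGF-beta and BMP signalling included both directions. Of 20 tested, 4 rose and 1 fell with DEN at day 28, 12 rose and 4 fell with CCl4 at day 28, 9 rose and 5 fell with DEN at day 84, and 13 rose and 3 fell with CCl4 at day 84 (65.0% higher, beside 28.0% of all genes). Timp1, an inhibitor of matrix proteases, rose by 1.08 (DEN) and 3.64 (CCl4) at day 28 and by 1.37 (DEN) and 3.66 (CCl4) at day 84, and the first was not called without DEN replicate 1 (0.92). Col1a2, a chain of collagen I and also one of the stellate markers, rose by 2.65 with CCl4 at day 28 and by 1.12 (DEN) and 3.47 (CCl4) at day 84.

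Id1, an early target that restrains differentiation factors, was not well above background in controls of day 28 and was at least 3.45-fold (DEN) and 5.22-fold (CCl4) their level. At day 84 it rose by 2.65 (DEN) and 2.25 (CCl4), with 2 of 3 controls above background. As the Id1 probe passed the filter through treated groups alone, its calls are no support for a rise. Id3, its relative, rose by 0.88 (DEN) and 0.88 (CCl4) at day 28 and by 0.70 with CCl4 at day 84, the last not called with the slide as a block (0.51). Fn1, fibronectin, which hepatocytes secrete into plasma, differed by −0.83 with CCl4 at day 28 and by −0.92 (DEN) and −1.07 (CCl4) at day 84, against −0.04 and −0.20 with spike-in scaling for the first 2, which lost their calls. Itga5, a fibronectin receptor chain, differed by −0.50 (DEN) and −0.37 (CCl4) at day 28 and by −1.16 with DEN at day 84, against −0.11 and 0.41 with spike-in scaling for those of day 28.

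**Figure D4:**
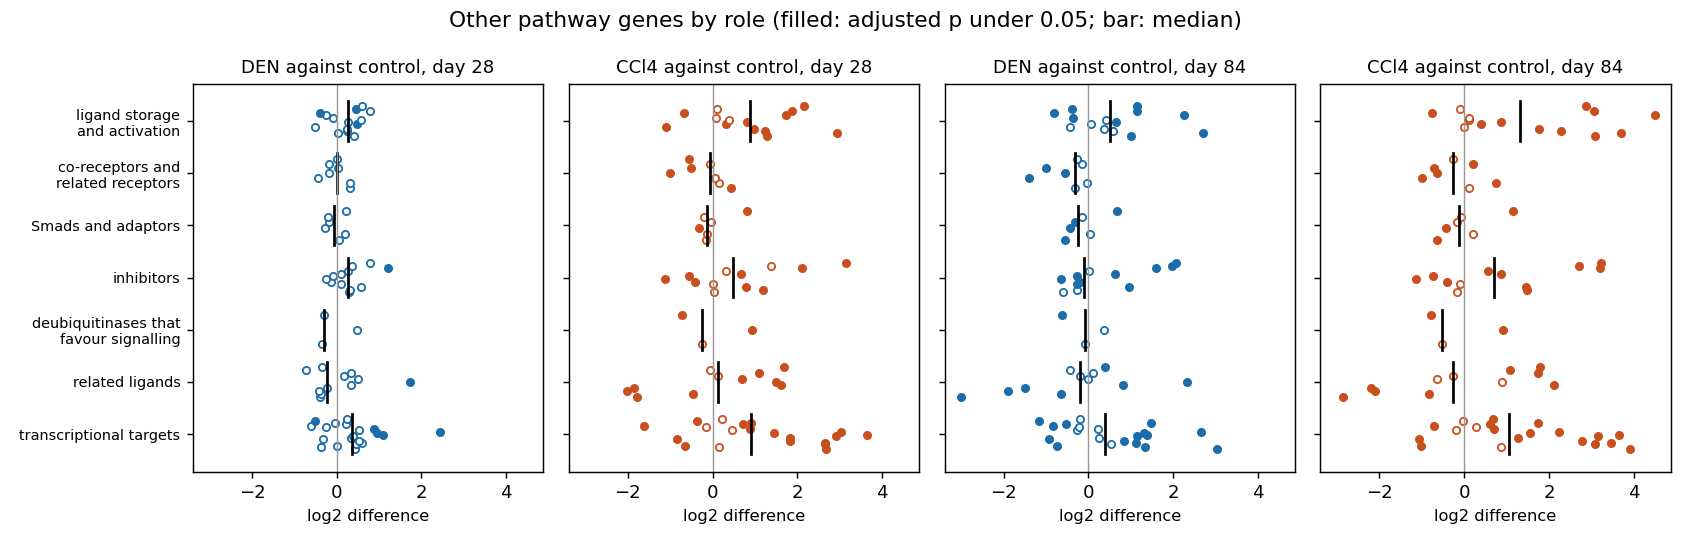
Difference from controls (log2) of the 73 other pathway genes tested, by role list; points are genes, filled where the adjusted p is below 0.05, and black bars are list medians. With CCl4 at day 84 the storage and activation genes and the targets reach farthest to the right, with 9 of 14 and 13 of 20 called higher; under spike-in scaling 2 of the 17 genes that fell there had a positive difference.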

How the data were processed

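Total liver RNA was labelled with Cy3 and hybridised to 18 arrays, 1 rat each, with groups and days taken from the sample titles. Per the file headers, scans were read with Agilent Feature Extraction (version 10.7.1.1), and the authors deposited the intensity of every spot. Their deposited values per probe are a ratio, which was checked to equal the processed signal over a constant per array (100% of probes within 0.01 log2).

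Of the 62976 spots on an array 1439 were controls. Outlier marks removed 18 probes, and saturation affected 0. Of 61537 probes, 28206 were matched by accession to genes of RefSeq (build GRCr8). From the deposited intensities, log2 processed signal minus the array's 75th percentile was computed. A probe entered the test if some group had it well above background on its 3 arrays, and the brightest such probe stood for its gene. The lmFit and eBayes functions of limma 3.58.1 (R 4.3.3) fitted a mean for each of the 6 groups jointly (14.06 total degrees of freedom), with Benjamini-Hochberg adjustment over 10914 genes and a threshold of 0.05, and every adjusted p given is from limma. Errors of differences are SE, intervals are 95%, and the number of arrays limits the precision. A gene not above background in 1 group has only a bound, written "at least": the brighter group's mean over, on each array of the dimmer group, the higher of its own signal and the lowest signal above background.

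The members and lists were chosen with earlier results of these data known. Other pathway genes are named where they are among the 2 called genes with the smallest adjusted p of a role list in a comparison with controls, and nearest genes are the 5 with the smallest distance. Marker lists covered hepatocytes, stellate cells, macrophages, sinusoidal endothelium, cholangiocytes, lymphocytes and platelets. Alternatives were normexp on the median spot signal (offset 50), no filter, probes above background on all arrays, median, quantile and spike-in scaling, the authors' table, blocks for replicate number and slide, 1 slide alone, only the groups compared, other probes and leaving out each array. Code was tested on simulated data. Plots were drawn in Python 3.11.15 with matplotlib 3.10.9, from tables read with pandas 2.3.3 (numpy 2.4.6) and, in R, the data.table package (version 1.17.8).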

Additional observations from a re-analysis of the deposited data

Results flagged for a closer look

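These results are singled out because a compound's effect differed between days in a test of that difference itself (limma, the day 84 difference from controls minus that of day 28, adjusted p below 0.05 over all genes). Among the members, Tgfb3 differed by 1.45 for CCl4, and Tgfbr2 by −0.60 for DEN and −0.44 for CCl4. Among ligand storage genes, Ltbp1 differed by 1.81 for CCl4, and for DEN Ltbp2 differed by 2.67 (with 1 of 3 controls of day 84 above background), Furin by −0.44 and Mmp14 by −0.84. Among receptors, Acvrl1 differed by 0.60 for CCl4 and Acvr2b by −1.01 for DEN.

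Smad1 differed by −0.59 for DEN and −0.49 for CCl4. Of the related ligands, Inhba differed by −2.63, Inhbc by −1.46 and Bmp7 by 0.73, all for DEN. Of the targets, Fn1 differed by −0.60 and Itga5 by −0.65 for DEN. Under spike-in scaling the differences of Tgfb3 (1.22), Tgfbr2 (−0.27 and −0.67), Ltbp1 (1.58), Furin (−0.12), Mmp14 (−0.52), Acvrl1 (0.37), Acvr2b (−0.69), Smad1 (−0.27 and −0.72), Fn1 (−0.28) and Itga5 (−0.33) were no longer called, and those of Ltbp2, Inhba, Inhbc and Bmp7 were. On leaving out each of 12 arrays in turn, the call was lost 11 times for Furin (−0.53 to −0.37), 10 times for Acvrl1 (0.49 to 0.71), 9 times each for Smad1 (−0.58 to −0.41) and Tgfbr2 (−0.51 to −0.37) with CCl4, 4 times for Bmp7 (0.59 to 0.85), and 2 times each for Tgfb3 (1.30 to 1.74) and Fn1 (−0.70 to −0.48). Those of Furin, Acvrl1 and, with CCl4, Smad1 and Tgfbr2 were also lost with no filter. Median scaling ended the Furin call, normexp those of Acvrl1 and Bmp7, quantile normalization that of Smad1 with CCl4, and the slide as a block those of Tgfb3 and of Smad1 with CCl4. Fitting only the groups compared ended the 4 CCl4 calls of Tgfb3, Tgfbr2, Acvrl1 and Smad1.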

How the results depend on the processing

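Of the 16 calls of members against controls, 13 were kept with normexp, 15 with no filter, 15 with median scaling, 15 with the slide as a block, and 16 each with quantile normalization, with the stricter filter and with the authors' table. Spike-in scaling kept 7 of them, lost 4, turned 5 and added 7, by its own construction, since it adds the shift of the 75th percentile. For calls across all genes, 1639 for DEN at day 28 became 3240 with spike-in scaling and 789 within slide 1 alone, and 700 to 1319 on leaving out 1 array, the lowest without DEN replicate 1. For CCl4 against DEN at day 84, 3743 became 2012 with the slide as a block and 1663 within slide 2 alone. For the change of the DEN effect between days, 1752 became 892 with spike-in scaling and 874 to 2130 on leaving out 1 array, the lowest without DEN replicate 2 of day 84. For that of the CCl4 effect, 658 became 1163 with normexp, 397 with no filter, 242 with spike-in scaling, 402 with the slide as a block and 369 with only the groups compared. On leaving out 1 array it was 382 (without control replicate 2 of day 84) to 1360 (without CCl4 replicate 2 of day 28). Between control days, 1066 became 402 with spike-in scaling and 49 with the slide as a block, and 568 to 873 on leaving out 1 array, the lowest without control replicate 1 of day 84. Control days lay on different slides, linked in that block only through CCl4 replicate 3 of day 28. The 49 therefore cannot tell day from slide. The cause of these changes was not tested.

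Same-numbered replicates deviated together with a correlation of −0.05 to 0.13, so the numbers were not taken to pair the rats. With a replicate block the calls between control days were 237, those for DEN and CCl4 at day 28 were 1306 and 6359, and those at day 84 were 5509 and 6866. Under that block 15 of the 16 member calls were kept, and that of Ldlrad4 with DEN at day 28 was lost (adjusted p = 0.0588). A call of Tgfb2 with CCl4 at day 84 was added, which is no support, since its probe was tested through that group alone. The block also ended the calls of Ldlrad4 (adjusted p = 0.0589) and Tgfb1 (adjusted p = 0.0514) between CCl4 and DEN, at days 84 and 28. It ended those of the changes between days of Tgfbr2 with CCl4 (adjusted p = 0.101), Furin with DEN (adjusted p = 0.0758) and Smad1 with CCl4 (adjusted p = 0.0566).

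Signs of members, and of called differences of other named genes, that turned under spike-in scaling against controls at day 28 were with DEN Ldlrad4 0.054, Tgfb2 0.30, Tgfbr2 0.15 and Furin 0.015, and with CCl4 Tgfbr2 0.46, Smad7 0.61, Furin 0.12, Bmpr2 0.23, Acvr2b 0.29, Smad4 0.46, Ppm1a 0.24, Usp15 0.070 and Itga5 0.41. At day 84 they were with DEN Ldlrad4 0.31, Tgfbr1 0.48, Smad7 0.23, Mmp14 0.33, Acvr2a 0.17, Smad4 0.30, Smad1 0.18, Ppm1a 0.44 and Usp15 0.10, and with CCl4 Smad7 0.072 and Smad4 0.12. Between CCl4 and DEN they were Tgfbr2 0.30 and Smad7 0.072 at day 28 and Tgfbr2 −0.10 and Smad7 −0.16 at day 84, and for the change of the DEN effect Ldlrad4 0.26, Tgfb1 0.26, Tgfb3 0.31 and Tgfbr1 0.011, and between control days Tgfb2 0.0033. Differences near 0 also turned: Tgfbr1 with CCl4 at day 84 under median scaling (−0.10), normexp (−0.024) and leaving out 1 array (−0.036 to 0.094), Smad7 for CCl4 against DEN at day 84 under median scaling (−0.043), normexp (−0.030), the slide block and slide 2 alone (−0.14 each) and leaving out 1 array (−0.10 to 0.14), and Tgfbr2 in that comparison under the slide block and slide 2 alone (−0.075 each). Likewise Tgfb2 with CCl4 at day 84 gave −0.11 with normexp, Tgfbr1 with DEN at day 28 gave −0.069 with another probe and −0.065 to 0.20 on leaving out 1 array, and the change of the DEN effect on Ldlrad4 was −0.14 to 0.037 on leaving out 1 array.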

Other observations

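Pmepa1, a relative of Ldlrad4 that also holds receptor Smads and is induced by TGF-beta in human cells, was looked at after its values were seen. It lay between 0.23 and 1.497 in CCl4 livers, −0.32 and −0.15 in DEN livers and −0.68 and −0.36 in control livers at day 28. At day 84 it lay between 1.43 and 1.86 in CCl4 livers, −0.36 and 0.09 in DEN livers and −0.10 and 0.36 in control livers. Against controls it was higher with CCl4 by 1.19 ± 0.26 at day 28 (limma adjusted p = 0.00147) and 1.49 ± 0.26 at day 84 (adjusted p = 0.000217), whereas Ldlrad4 was lower there by the 75th percentile, with no call under spike-in scaling.

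Summed scaled signals of the other marker lists also differed between groups. For macrophages and Kupffer cells they ranged over 101–125 in CCl4, 177–186 in DEN and 134–176 in control livers at day 28, and 79.2–117, 96.2–128 and 134–159 in the same groups at day 84. The 9 markers of that list went both ways with CCl4, where Cd68, Trem2 and Gpnmb rose and Cd163, Clec4f, Marco and Cd5l fell at each day, relative to the 75th percentile. For sinusoidal endothelium they were 32.6–40.8, 61.4–64.5 and 57.9–63.7 at day 28 and 29.0–31.4, 39.1–46.2 and 54.5–68.1 at day 84. For cholangiocytes they were 2.82–7.29, 2.42–2.90 and 2.09–2.67 at day 28 and 7.15–8.68, 5.33–9.02 and 1.94–2.17 at day 84. For lymphocytes they were 5.81–8.52, 5.63–6.35 and 2.92–3.68 at day 28 and 6.75–7.45, 3.90–4.66 and 3.02–3.78 at day 84, and for platelets 0.8003–1.39, 0.861–0.977 and 0.566–1.30, then 1.61–2.14, 0.615–1.02 and 0.541–0.608.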
